A study of Zea mays with 24 samples.

Results

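Of the 41780 maize transcripts measured on a microarray of source leaves, 47 were higher in stressed leaves than in their own controls under all 3 of the stresses applied: cold nights, nitrogen shortage and phosphate shortage. They were chosen by their measured values, so the differences that made them members are described here without a test. A transcript was a member when the mean log2 level of the stressed leaves exceeded that of the control leaves by 1 or more in each experiment, when all 4 stressed arrays lay above all 4 control arrays of the same experiment, and when the spot was well above background, as judged by the scanner software, on the 4 stressed arrays of each. The limits were met by 49 transcripts in all 3 experiments. The class-II DAHP synthetase was then left out because it belongs to a pathway list of the study, and 1 further transcript was left out by its identifier.

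All plants were of the inbred line B73, grown in pots on nutrient-poor peat, and each group held 4 biological replicates, each on an array of its own with a single dye, which gave 24 arrays in 6 groups. Low T plants had nights of 4 °C and were compared with control T plants that had nights of 20 °C. Leaf 5 was taken at day 20 after germination, and both groups received full nutrient solution with 15 mM KNO3 and 0.5 mM KH2PO4. Low N plants received 0.15 mM KNO3, against 15 mM in control N plants. Low P plants received 0.1 mM KH2PO4, against 0.5 mM in control P plants. In these last 4 groups nights were at 20 °C and leaf 6 was taken at day 30, from plants of another chamber under other lamps than the temperature experiment. The paper states that the temperature, nitrogen and phosphate experiments were run in different seasons and years. It describes successive sets for temperature and for nitrogen and a single set for phosphate. Which replicates belong to which set is not given, and standard errors here treat the 4 arrays of a group as independent. Differences between the temperature experiment and the nutrient experiments combine age, leaf number, chamber, light and season, and these cannot be told apart. The sources used here do not give how many plants stand behind each replicate.

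A source leaf is a fully expanded leaf that exports the sugar it fixes. Cold nights slow export and growth, nitrate shortage limits the making of amino acids, proteins and chlorophyll, and phosphate shortage limits nucleotides, phospholipids and the phosphorylated intermediates of photosynthesis. The sensing and signalling routes known for the 3 stresses differ, and the study searched for transcripts that mark stress in general.

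The leaves had the transcripts that a green maize leaf should have. All 15 photosystem I, all 11 photosystem II and all 18 C4 shuttle transcripts of the study's pathway lists were well above background on all 24 arrays, as were 27 of the 28 Calvin cycle transcripts. Each array had between 25780 and 36966 transcripts well above background. Control T replicate 3 and low P replicate 1 had the highest medians over all transcripts, -2.41 and -2.43 against -2.86 to -2.62 on the other 22 arrays, on the log2 scale used throughout, in which the 75th percentile of every array is 0. The samples were bulk leaf tissue, in which fewer cells of a type and less RNA per cell cannot be told apart.

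Few transcripts met the rule in more than 1 experiment. Among transcripts well above background on the 4 stressed arrays, 2232 of 30214 met it under low T (7.39%), 1007 of 26069 under low N (3.86%) and 2344 of 27798 under low P (8.43%). For pairs of stresses the numbers were 241 for low T with low N, 166 for low T with low P and 250 for low N with low P, and all 3 were met by 0.194% of the 25255 transcripts well above background on all 12 stressed arrays. Each stress had its own control plants, so no control array is shared between the 3 comparisons. The number of members depends on the background correction and on the scaling of the arrays: after normexp background correction 11 transcripts met the rule, 9 of them among the 47, and after scaling on spike-in probes 114 did, 41 of them among the 47.

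The median log2 difference of the 47 members was 1.64 under low T (1.01 to 5.54), 1.72 under low N (1.06 to 3.52) and 1.46 under low P (1.01 to 2.76). The medians over all transcripts well above background on the stressed arrays were -0.04, -0.01 and 0.01 in the same order. Standard errors of the members' differences had medians of 0.38, 0.37 and 0.30. Low T gave the widest range, with 9 members over 3 on the log2 scale, whereas 1 member passed 3 under low N and none of the 47 did under low P. The largest of the 3 differences was that of low T in 20 members, of low N in 17 and of low P in 10. For 12 members the 3 differences lay within 0.5 of each other, and for 6 they spread over more than 2. Normexp background correction was applied to the 84 differences of 28 members, those named or called unknown in the study's tables and 3 others. It moved 42 of them by over 1.5 times, 9 under low T, 14 under low N and 19 under low P. Normexp values are given with some of the members described and not with all.

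**Figure D1:**
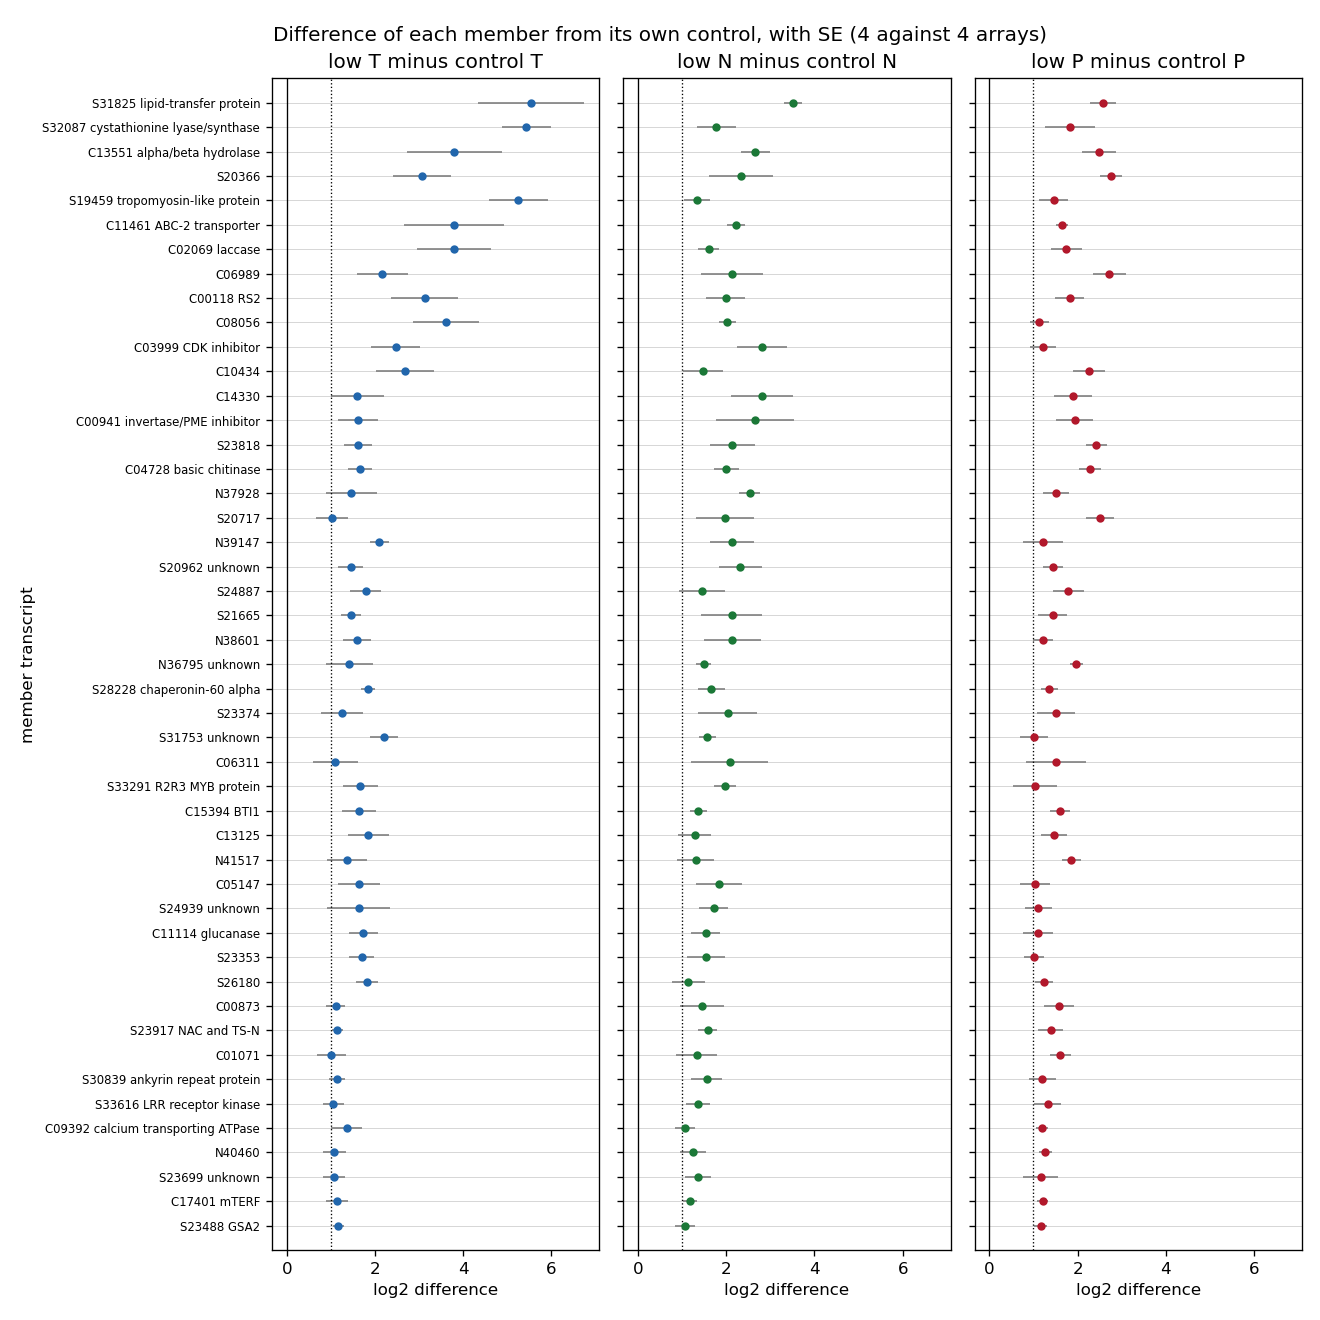
Log2 difference between stressed and control leaves for each of the 47 members (rows, ordered by their mean over the 3 stresses), in a panel for each stress. Points are differences of group means, bars are their standard errors (4 against 4 arrays), the solid line is at 0 and the dotted line at the limit of 1. Low T differences reach 5.54, low N differences 3.52 and low P differences 2.76.

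Names came from the study's tables, which name 17 members in their list of common markers and 4 more with a description in their lists of changed transcripts. Another 4 are listed there as unknown, 2 are listed without a gene model, and 20 have no entry that was used here. The named members do not belong to a single pathway. By their names they comprise regulators, plastid and organelle proteins, defence and cell wall proteins, enzymes of small molecules, and membrane and signalling proteins.

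Among the regulators, rough sheath2 (RS2, OptiV1C00118) is a MYB-domain protein that keeps knotted1-like homeobox genes off in developing maize leaves. Its log2 level was 2.38, 2.75, 2.99 and 2.42 in low T leaves, against 0.74, 0.65, -0.95 and -2.42 in control T leaves. For nitrogen the values were 0.05, -0.15, -0.08 and -0.59 in low N leaves, against -1.67, -1.28, -2.96 and -2.81 in control N leaves. In the phosphate experiment they were -1.41, -1.21, -0.09 and -1.43 in low P leaves, against -2.72, -2.72, -2.96 and -3.02 in control P leaves. The low T leaves agreed within 1 log2 unit, whereas the control T leaves fell into a high pair on one slide and a lower pair on the other. The differences were 3.13 ± 0.76 under low T, 1.99 ± 0.44 under low N and 1.82 ± 0.33 under low P, where ± is the standard error of a difference between 4 and 4 arrays throughout. The one for phosphate was 1.04 after normexp. Within each slide of the temperature experiment the difference was 1.87 on the first and 4.38 on the second.

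The transcript described as a transcription factor with NAC and TS-N domains (OptiV1S23917) carries a name that does not say which of the protein families called NAC is meant. It stood at 3.71, 3.74, 3.97 and 3.98 in low T leaves, against 2.80, 2.56, 2.95 and 2.50 in control T leaves. In the nitrogen experiment it was measured at 1.80, 1.80, 2.03 and 1.77 in low N leaves, against 0.74, 0.48, -0.05 and -0.10 in control N leaves. Its levels for phosphate were 1.20, 1.11, 1.66 and 1.58 in low P leaves, against -0.08, 0.25, 0.46 and -0.64 in control P leaves. Low T replicates differed by less than 0.5, and the order of the groups was low T, control T, low N, low P, control N and control P. Its differences of 1.15 ± 0.13 under low T, 1.58 ± 0.21 under low N and 1.39 ± 0.28 under low P were of similar size, and each was larger than the SD of either group. An ankyrin repeat protein (OptiV1S30839), of a family that binds other proteins through its repeats, was at 3.62, 3.77, 3.74 and 3.59 in low T leaves, against 2.90, 2.60, 2.63 and 2.07 in control T leaves. For nitrogen it read 1.70, 1.58, 1.54 and 1.10 in low N leaves, against 0.58, 0.21, -0.93 and -0.17 in control N leaves, and for phosphate 0.50, 0.72, 1.46 and 1.01 in low P leaves, against -0.32, -0.00, 0.13 and -0.92 in control P leaves. Its differences were 1.13 ± 0.18 under low T, 1.56 ± 0.35 under low N and 1.20 ± 0.31 under low P, and the day-30 groups were again all below the control T leaves.

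The cyclin-dependent kinase inhibitor (OptiV1C03999) belongs to the proteins that restrain the cell cycle; another of the study's tables lists the same transcript as unknown. Its level was -0.81, -1.04, -0.86 and -1.12 in low T leaves, against -2.70, -2.66, -3.35 and -5.00 in control T leaves. The nitrogen groups had -2.22, -2.63, -2.55 and -2.61 in low N leaves, against -4.60, -4.28, -5.70 and -6.68 in control N leaves. The phosphate groups had -3.73, -4.87, -3.83 and -4.41 in low P leaves, against -5.63, -5.11, -5.59 and -5.40 in control P leaves. The stressed leaves varied little under low T and low N, and the wide spread was in the controls, where control T replicate 4 and control N replicates 3 and 4 were lowest. Only 2 of the 4 control N arrays were well above background. The differences were 2.47 ± 0.55 under low T, 2.81 ± 0.56 under low N and 1.22 ± 0.29 under low P, and the low N and low T values lay within 1 standard error of each other, while that of low P was lower. After normexp they were 1.26, 1.12 and -0.27. An R2R3 MYB protein (OptiV1S33291), of the largest MYB class of plants, differed by 1.67 ± 0.40 under low T, 1.97 ± 0.25 under low N and 1.03 ± 0.50 under low P, and its lowest low P array stood only 0.06 above its highest control P array. Its normexp values were 1.03 under low N and 0.01 under low P, and quantile normalization gave 0.77 under low P.

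**Figure D2:**
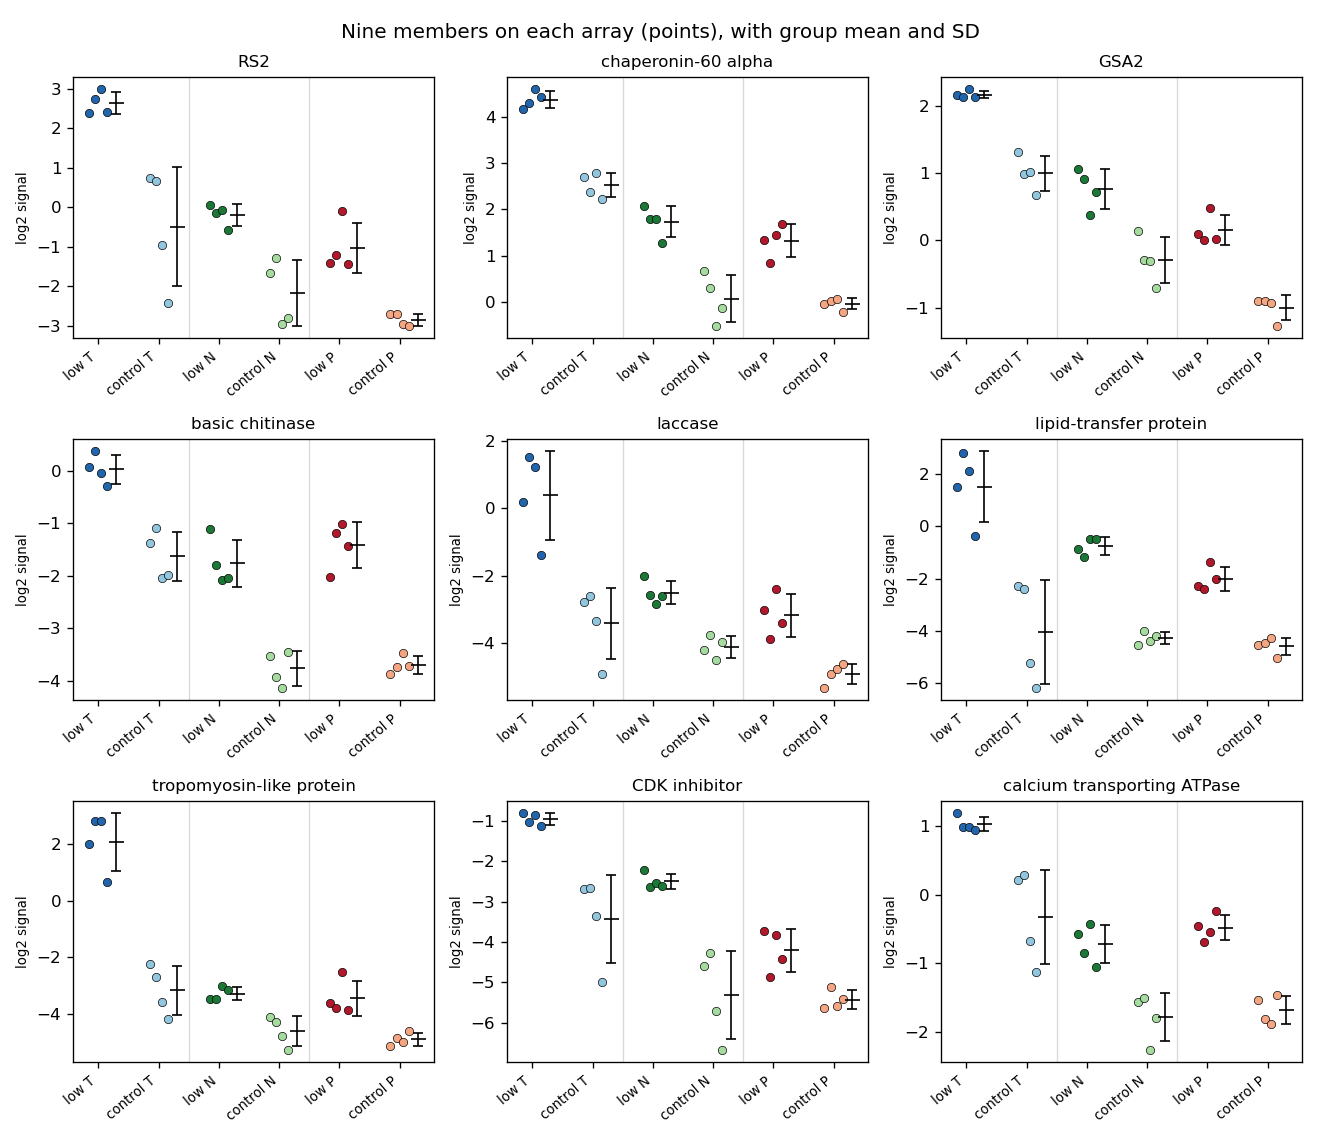
Log2 level of 9 named members on each array (points, replicates 1 to 4 from left), with the group mean and SD to the right of the points. Each panel has its own vertical scale in log2 units above or below the 75th percentile of its array. As the rule requires, the 4 stressed arrays lie above the 4 controls of the same experiment in every panel, and low T leaves are the highest group.

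Of the proteins of plastids and mitochondria, chaperonin-60 alpha (OptiV1S28228) is a subunit of the folding machine that in chloroplasts handles the large subunit of Rubisco; a second table of the study describes it as a mitochondrial chaperonin. Its levels were 4.17, 4.30, 4.60 and 4.42 in low T leaves, against 2.70, 2.38, 2.79 and 2.23 in control T leaves. The nitrate comparison gave 2.08, 1.79, 1.79 and 1.28 in low N leaves, against 0.66, 0.29, -0.53 and -0.14 in control N leaves. The phosphate comparison gave 1.33, 0.84, 1.44 and 1.69 in low P leaves, against -0.04, 0.02, 0.07 and -0.21 in control P leaves. The gap between stressed and control arrays was at least 0.62 in every experiment. The differences were 1.85 ± 0.16 under low T, 1.66 ± 0.31 under low N and 1.36 ± 0.19 under low P, and those of low T and low N differed by less than their standard errors combined. A second chaperonin of the study's tables, OptiV1C16447, was higher under low T and low N, with differences of 1.38 and 1.40 that passed a fold change over 2 and a limma adjusted p under 0.05, and not under low P, with 0.89. With spike-in scaling and with normexp it was called higher under low P as well.

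GSA2 (OptiV1S23488), a glutamate-1-semialdehyde aminomutase, makes 5-aminolevulinate, the precursor of chlorophyll and heme. It was at 2.16, 2.13, 2.25 and 2.13 in low T leaves, against 1.31, 0.98, 1.02 and 0.68 in control T leaves. Values of the nitrogen experiment were 1.06, 0.91, 0.37 and 0.72 in low N leaves, against 0.14, -0.29, -0.31 and -0.71 in control N leaves. Those of the phosphate experiment were 0.09, 0.01, 0.48 and 0.02 in low P leaves, against -0.91, -0.90, -0.93 and -1.28 in control P leaves. The low T arrays lay within 0.12 of each other, the tightest of the groups of this gene. Its differences of 1.17 ± 0.13 under low T, 1.06 ± 0.23 under low N and 1.16 ± 0.14 under low P were close to each other. A mitochondrial transcription termination factor (mTERF, OptiV1C17401), of a family that binds nucleic acids and controls gene expression in mitochondria and plastids, was at -0.53, -0.20, -0.24 and -1.09 in low T leaves, against -1.92, -1.78, -1.33 and -1.60 in control T leaves. The nitrogen arrays read -1.93, -1.97, -1.88 and -2.06 in low N leaves, against -3.10, -3.17, -2.79 and -3.50 in control N leaves, and the phosphate arrays read -2.59, -2.28, -2.24 and -2.38 in low P leaves, against -3.83, -3.40, -3.47 and -3.61 in control P leaves. With 1.14 ± 0.24 under low T, 1.18 ± 0.15 under low N and 1.21 ± 0.12 under low P, mTERF had the smallest spread of the 3 differences, 0.07. After normexp they were 0.69, 0.69 and 0.24, a spread of 0.45.

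Several members carry names of protein families of defence and of the cell wall. The basic chitinase (OptiV1C04728) cuts chitin, a polymer of fungal walls, and chitinases are known as pathogenesis-related proteins. Its level was 0.06, 0.37, -0.04 and -0.30 in low T leaves, against -1.38, -1.10, -2.05 and -1.99 in control T leaves. For nitrate it was -1.12, -1.80, -2.09 and -2.04 in low N leaves, against -3.53, -3.93, -4.14 and -3.45 in control N leaves. For phosphate it was -2.02, -1.19, -1.01 and -1.43 in low P leaves, against -3.86, -3.74, -3.46 and -3.71 in control P leaves. Groups were separated by at least 0.80 in each experiment. The differences were 1.66 ± 0.27 under low T, 2.00 ± 0.28 under low N and 2.28 ± 0.24 under low P, and low P was the largest of the 3. With normexp it was the smallest, at 1.17, beside 1.29 for low T and 1.27 for low N. The glucan endo-1,3-beta-D-glucosidase (OptiV1C11114), another pathogenesis-related class that cuts beta-1,3-glucans such as callose, was at -1.56, -1.14, -2.16 and -2.12 in low T leaves, against -3.09, -3.32, -3.43 and -4.08 in control T leaves. In the nitrogen groups it was at -3.25, -3.05, -3.29 and -3.52 in low N leaves, against -4.32, -4.30, -5.56 and -5.05 in control N leaves. In the phosphate groups it was at -3.57, -4.99, -3.81 and -4.60 in low P leaves, against -5.53, -5.39, -5.28 and -5.14 in control P leaves. The low P arrays were spread over more than 1 log2 unit, and low P replicate 2 came within 0.16 of the highest control P array. Its differences were 1.74 ± 0.32 under low T, 1.53 ± 0.32 under low N and 1.10 ± 0.34 under low P, and 2 of the 4 control N arrays were well above background. Normexp gave 0.90, 0.58 and -0.18, and quantile normalization gave 0.73 under low P.

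The multicopper oxidase or laccase (OptiV1C02069) belongs to enzymes that oxidise monolignols in lignin formation. Readings were 0.18, 1.52, 1.22 and -1.39 in low T leaves, against -2.77, -2.61, -3.34 and -4.91 in control T leaves. They were -2.01, -2.56, -2.82 and -2.61 in low N leaves, against -4.20, -3.74, -4.49 and -3.97 in control N leaves. In the third experiment they were -3.02, -3.88, -2.38 and -3.40 in low P leaves, against -5.33, -4.92, -4.76 and -4.62 in control P leaves. Low T replicate 4 was lower than the other 3 low T arrays, and control T replicate 4 was the lowest of its group as well. The differences were 3.79 ± 0.84 under low T, 1.60 ± 0.24 under low N and 1.74 ± 0.35 under low P, so that low T exceeded the other 2 by more than their standard errors. After normexp the values were 2.49, 0.89 and 0.25. An invertase or pectin methylesterase inhibitor (OptiV1C00941), of small proteins that block enzymes of the cell wall, differed by 1.62 ± 0.45 under low T, 2.65 ± 0.89 under low N and 1.93 ± 0.41 under low P, and by 1.31, 1.19 and 0.18 after normexp. Its control N arrays 1 and 2 were at -3.51 and -3.50, and arrays 3 and 4, at -6.09 and -6.92, were not well above background.

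The bifunctional inhibitor/lipid-transfer protein (OptiV1S31825), of small secreted proteins that bind lipids, had the largest difference of all members under low T and also under low N. It was at 1.52, 2.79, 2.13 and -0.38 in low T leaves, against -2.29, -2.39, -5.23 and -6.20 in control T leaves. Nitrogen gave -0.88, -1.17, -0.49 and -0.49 in low N leaves, against -4.53, -4.00, -4.39 and -4.19 in control N leaves, and phosphate gave -2.29, -2.41, -1.35 and -2.00 in low P leaves, against -4.54, -4.47, -4.28 and -5.05 in control P leaves. Control T replicates 3 and 4 lay far below replicates 1 and 2, and 3 of these 4 arrays were well above background. The differences were 5.54 ± 1.21 under low T, 3.52 ± 0.20 under low N and 2.57 ± 0.29 under low P. In contrast to control T, the control N arrays agreed within an SD of 0.23, which makes the low N difference the more precise one. The slides of the temperature experiment gave 4.49 and 6.59. Its low P difference was 1.04 after normexp.

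**Figure D3:**
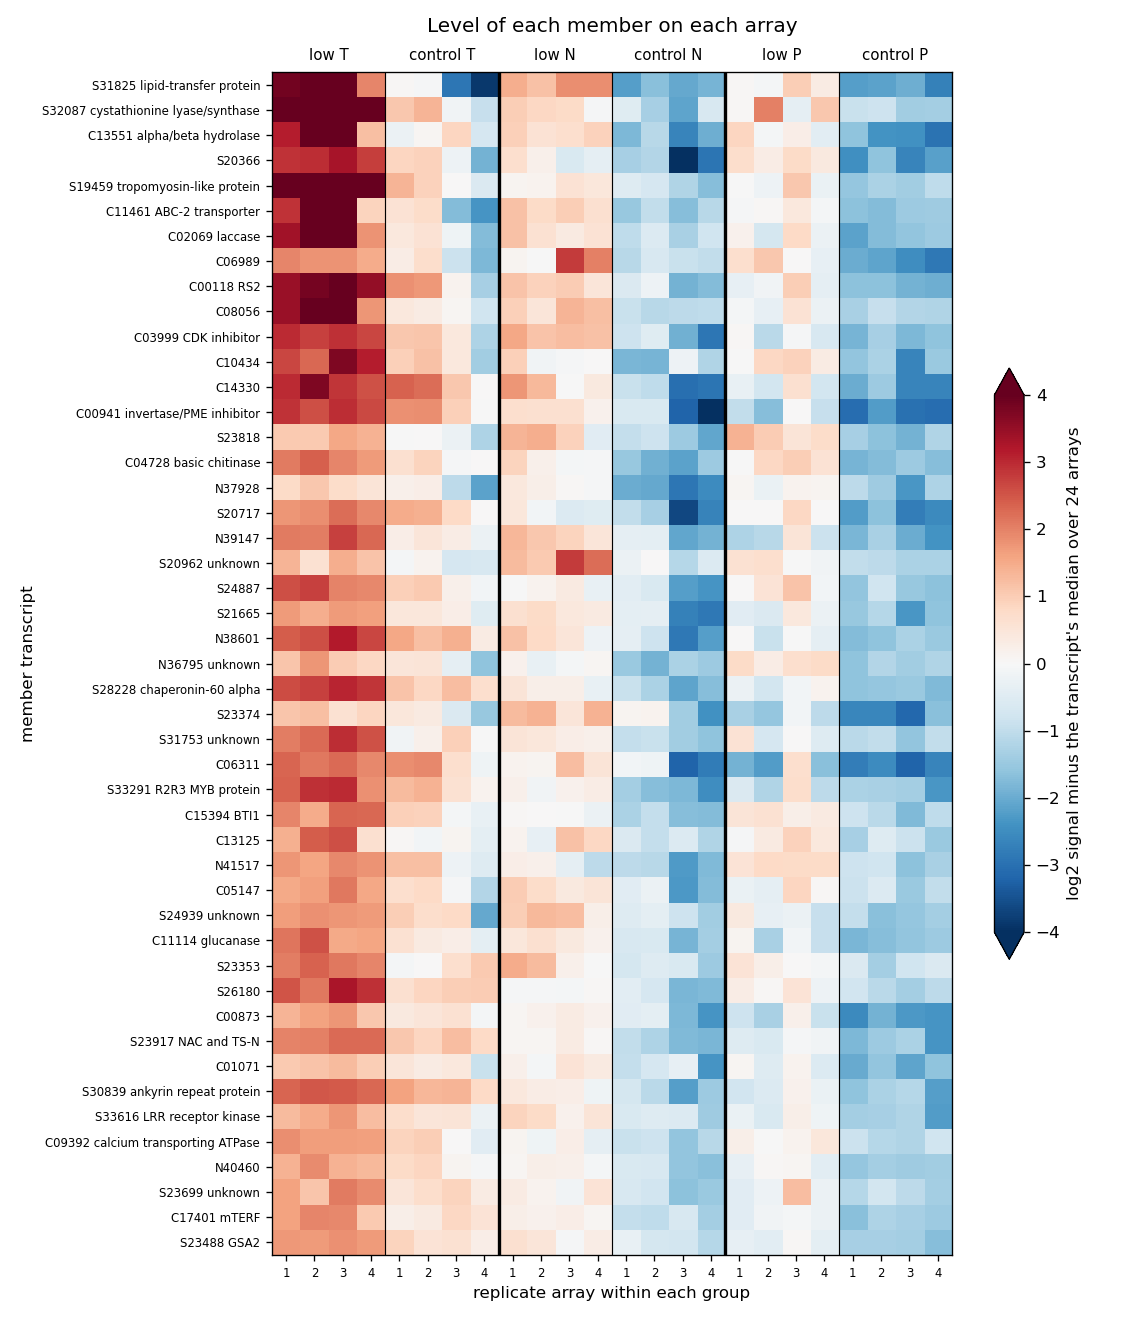
Level of each member (rows) on each of the 24 arrays (columns, replicates 1 to 4 of each group), as log2 level minus the median of that transcript over the 24 arrays. Red is above and blue below that median, and colours saturate at 4. Stressed columns are redder than the control columns to their right in each experiment, and low T columns are the reddest of all in 45 of the 47 rows by group mean.

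Among enzymes of small molecules, the alpha/beta hydrolase (OptiV1C13551) belongs to a large family whose members cut esters and other bonds, and the name does not give its substrate. Its level was -1.84, 0.33, 0.60 and -3.78 in low T leaves, against -5.22, -4.89, -4.13 and -5.65 in control T leaves. Nitrate groups read -4.02, -4.41, -4.31 and -4.04 in low N leaves, against -6.76, -6.09, -7.63 and -6.94 in control N leaves. Phosphate groups read -4.12, -5.06, -4.71 and -5.41 in low P leaves, against -6.57, -7.38, -7.40 and -7.92 in control P leaves. None of the 4 control P arrays and 1 of the 4 control N arrays were well above background. For the phosphate experiment only a bound can be given: low P leaves were at least 2.55-fold higher than control P leaves set at the lowest signal that counts as well above background on each array, and the measured means were -4.83 in low P and -7.32 in control P leaves. After normexp this difference was -0.14. Under low T the difference was 3.80 ± 1.07, and under low N it was 2.66 ± 0.33, and normexp gave 2.07 and 0.67; low T replicates 2 and 3 were over 4 log2 units above replicate 4. The transcript described as cystathionine beta-lyase/cystathionine gamma-synthase (OptiV1S32087), enzymes on the way from cysteine to methionine, had 5.43 ± 0.56 under low T, 1.77 ± 0.44 under low N and 1.83 ± 0.56 under low P. Its low T arrays, at 5.57, 4.74, 5.00 and 4.89, were all over 4 above the highest control T array of 0.63.

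Membrane and signalling proteins make up the rest of the named members. A calcium transporting ATPase (OptiV1C09392) moves Ca2+ out of the cytosol. It was at 1.19, 0.99, 0.99 and 0.95 in low T leaves, against 0.21, 0.29, -0.67 and -1.13 in control T leaves. Nitrogen values were -0.57, -0.85, -0.43 and -1.05 in low N leaves, against -1.56, -1.50, -2.27 and -1.80 in control N leaves. Phosphate values were -0.45, -0.69, -0.54 and -0.24 in low P leaves, against -1.54, -1.81, -1.89 and -1.47 in control P leaves. The low T arrays were close together, and control T again formed a higher and a lower pair. Its differences were 1.36 ± 0.35 under low T, 1.06 ± 0.23 under low N and 1.20 ± 0.14 under low P, which differed from each other by less than their standard errors. The leucine-rich receptor-like protein kinase (OptiV1S33616), of the receptors that sense peptides or microbial molecules at the cell surface, was at -2.06, -1.84, -1.54 and -2.08 in low T leaves, against -2.62, -2.82, -2.79 and -3.53 in control T leaves. The next groups read -2.42, -2.55, -3.13 and -2.80 in low N leaves, against -3.91, -3.84, -3.85 and -4.73 in control N leaves, and -3.58, -3.93, -3.07 and -3.49 in low P leaves, against -4.68, -4.64, -4.51 and -5.54 in control P leaves. Replicate 4 was the lowest array in all 3 control groups. Its differences were 1.06 ± 0.24 under low T, 1.36 ± 0.27 under low N and 1.32 ± 0.30 under low P, against 0.45, 0.66 and 0.01 with normexp, and 3 of the 4 control N arrays were well above background.

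VIRB2-interacting protein 1 (BTI1, OptiV1C15394) is named after an Arabidopsis reticulon-like membrane protein that binds a protein of Agrobacterium. Its values were 1.92, 1.43, 2.29 and 2.26 in low T leaves, against 0.92, 0.88, -0.11 and -0.35 in control T leaves. The nitrate set was 0.01, -0.03, -0.06 and -0.27 in low N leaves, against -1.31, -1.01, -1.74 and -1.78 in control N leaves. The phosphate set was 0.47, 0.57, 0.19 and 0.32 in low P leaves, against -0.87, -1.12, -1.80 and -1.05 in control P leaves. The controls of the temperature experiment fell into the same 2 pairs as those of the ATPase. The differences were 1.64 ± 0.38 under low T, 1.37 ± 0.20 under low N and 1.60 ± 0.22 under low P, with 0.78 on the first slide of the temperature experiment and 2.50 on the second. An ABC-2 type transporter (OptiV1C11461), of pumps that move substrates across membranes at the expense of ATP, had 3.79 ± 1.13 under low T, 2.22 ± 0.20 under low N and 1.65 ± 0.14 under low P. Its low T replicate 4, at -0.82, lay 0.18 above the highest control T array, and the other 3 low T arrays were at 1.16 or more. With normexp its low P difference was 0.92.

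The tropomyosin-like protein (OptiV1S19459), named after a coiled-coil protein of animal actin filaments, has no role assigned here. It was at 2.00, 2.83, 2.83 and 0.65 in low T leaves, against -2.25, -2.68, -3.59 and -4.17 in control T leaves. Low N and its control had -3.49, -3.47, -3.01 and -3.15 in low N leaves, against -4.11, -4.27, -4.79 and -5.29 in control N leaves. Low P and its control had -3.61, -3.79, -2.52 and -3.86 in low P leaves, against -5.15, -4.86, -4.99 and -4.62 in control P leaves. Low T stood far from all other groups, whose means lay between -4.90 and -3.17. The differences were 5.25 ± 0.67 under low T, 1.34 ± 0.29 under low N and 1.46 ± 0.33 under low P, and the spread of 3.91 over the 3 stresses was the largest of the 47 members. After normexp 0.52 was left under low N and 0.13 under low P, beside 4.10 under low T. The unknown protein OptiV1S20962 was at 0.22, -0.55, 0.31 and -0.00 in low T leaves, against -1.22, -1.01, -1.82 and -1.79 in control T leaves. For nitrogen the arrays had 0.13, -0.10, 1.66 and 1.08 in low N leaves, against -1.39, -1.13, -2.30 and -1.69 in control N leaves, and for phosphate -0.53, -0.47, -1.17 and -1.28 in low P leaves, against -2.14, -2.21, -2.43 and -2.41 in control P leaves. It was 1 of 2 members that were highest in low N leaves, where replicates 3 and 4 exceeded replicates 1 and 2. Its differences were 1.45 ± 0.28 under low T, 2.32 ± 0.48 under low N and 1.44 ± 0.22 under low P.

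Among the 20 members with no entry that was used here, 3 had the largest value of their smallest difference. OptiV1S20366 was at 1.44, 1.51, 1.86 and 1.32 in low T leaves, against -0.59, -0.52, -1.66 and -3.33 in control T leaves. Its other differences were 2.33 ± 0.73 under low N and 2.76 ± 0.25 under low P, beside 3.06 ± 0.66 under low T, and normexp gave 1.42, 1.59 and 2.58 in the same order. OptiV1C06989 differed by 2.17 ± 0.58 under low T, 2.13 ± 0.71 under low N and 2.72 ± 0.37 under low P, and its low N arrays of -0.23, -0.35, 2.47 and 1.66 fell into a low and a high pair. Its low P difference was 1.77 after normexp. OptiV1S23818 differed by 1.62 ± 0.32 under low T, 2.14 ± 0.52 under low N and 2.42 ± 0.24 under low P, and by 0.57, 0.95 and 0.52 after normexp.

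The limit of 1 was close for 6 members, which passed it by less than 0.05 in 1 stress. For example, OptiV1S31753 passed with 1.006 under low P, and OptiV1C01071 with 1.012 under low T. No transcript met every other condition and missed 1 difference by 0.05 or less. Separation was narrow in a few cases as well. Under low T the lowest stressed array of OptiV1C06311 was 0.01 above its highest control, under low N those of OptiV1C10434 and OptiV1N41517 were 0.06 and 0.01 above, and under low P OptiV1S24939 was 0.03 above. Of the 21 positive entries in the study's list of common markers 17 were members. A family 18 glycosyl hydrolase differed by 5.73 under low T, 2.41 under low N and 1.43 under low P but was well above background on 3 of the 4 low P arrays, and an armadillo repeat protein differed by 2.08, 2.12 and 4.47 in the same order but was well above background on 2 of the 4 low N arrays.

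Many members were not well above background on all control N arrays. On all 12 control arrays 24 of the 47 members (51.06%) were well above background, against 95.97% of the 25255 transcripts that were so on all 12 stressed arrays. The shortfall was mostly in the nitrogen experiment, where 25 members were well above background on the 4 control N arrays, against 46 on control T and 45 on control P arrays. The members' level was no lower there than in control P leaves, with medians of the group means of -3.72 and -3.73. Over all transcripts, control N replicates 1 to 4 had 31725, 33163, 28860 and 25780 well above background. None of the 1128 member spots was saturated. The rule itself asks for signal in stressed leaves only, and it asks for a lower level in the controls.

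Members also varied more among control replicates than other transcripts did. The median SD of the members was 0.29 in low T, 0.29 in low N and 0.44 in low P leaves, against 0.64 in control T, 0.56 in control N and 0.30 in control P leaves. Over all tested transcripts it was 0.23, 0.26 and 0.17 in the stressed groups, against 0.29, 0.24 and 0.15 in their controls. Control T replicate 4 was the lowest control T array for 41 of the 47 members, and for 37.86% of all tested transcripts. Control N replicates 3 and 4 were lowest for 22 and 20 members, against 30.06% and 29.95% of all tested transcripts. In the low P group replicate 3 was highest for 31 members, against 22.04%.

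Deviations from the group mean were shared between members. Over the 12 stressed arrays the mean pairwise correlation of these deviations was 0.24 among members and 0.02 among all tested transcripts, and over the 12 control arrays it was 0.49 and 0.02. The points share arrays, and the rule had used the same arrays, so these correlations are a description. The mean of replicates 3 and 4 minus that of replicates 1 and 2 had a median over the members of -0.06 in low T leaves, against -0.95 in control T leaves, of -0.26 in low N leaves, against -0.81 in control N leaves, and of 0.24 in low P leaves, against -0.23 in control P leaves. Over all tested transcripts these medians lay between -0.07 and 0.08. The low P group thus went the other way, with 10 of the 47 members below 0.

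Stressed and control arrays shared some slides. Replicates 1 and 2 of low T and control T shared slide 1, and replicates 3 and 4 shared slide 2. Whether these pairs were also grown in different sets is not given. The median difference of the members was 1.12 on slide 1 (0.33 to 4.88), where 30 of the 47 reached 1, and 2.06 on slide 2 (0.80 to 6.59), where 46 did. In the nitrogen experiment a single slide held arrays of both groups, low N replicates 3 and 4 and control N replicate 3, and gave a median of 2.08 (0.19 to 4.09), with 41 members at 1 or more. That no member is below 0 on these slides follows from the rule. Low P and control P each filled a slide of their own, so slide and phosphate supply cannot be told apart.

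**Figure D4:**
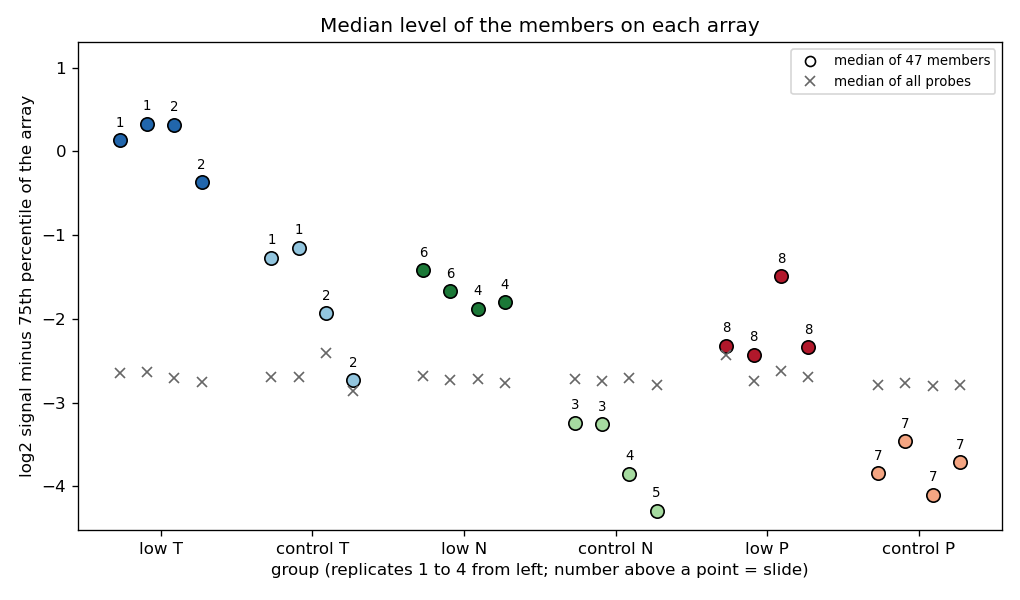
Median log2 level of the 47 members on each array (circles, replicates 1 to 4 from left in each group, number = slide) and of all transcripts on the same array (crosses). Member medians run between -0.37 and 0.33 in low T, -2.73 and -1.15 in control T, -1.88 and -1.42 in low N, -4.29 and -3.24 in control N, -2.43 and -1.49 in low P and -4.10 and -3.46 in control P leaves, while the medians of all transcripts stay between -2.86 and -2.41.

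Across the 6 groups, low T was the highest for 45 of the 47 members and low N for the remaining 2, OptiV1S20962 and OptiV1S23374. The lowest group was control P for 32 members and control N for 15. The medians of the members' group means were 0.00 in low T, -1.69 in control T, -1.76 in low N, -3.72 in control N, -2.15 in low P and -3.73 in control P leaves. Low N exceeded control T in 25 members and was below it in 22, with a median difference of 0.11 (-1.10 to 3.27). Low P exceeded control T in 17 and was below it in 30, with a median of -0.38 (-2.35 to 2.02). These groups come from different experiments and were not tested against each other.

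The control groups offer a comparison that the rule did not make, day-30 leaves (leaf 6) against day-20 leaves (leaf 5) without stress. All 47 members were lower in the day-30 controls (control N and control P, 8 arrays) than in the day-20 controls (control T, 4 arrays), with a median log2 difference of -1.69 (-3.63 to -0.40). Over all 31507 tested transcripts the median was -0.0033. By limma with Benjamini-Hochberg adjustment, a fold change over 2 and an adjusted p under 0.05, 41 of the 47 members were called lower and none of them higher, where 11.8% of all tested transcripts were called lower. With slide as a random block 24 of the 47 were called lower, where 6.82% of all tested transcripts were. The rule used the same 12 control arrays, each group as the baseline of its own stress, and a low level in control N and control P leaves helps a transcript to meet it. The comparison is therefore a description, and no p is given for single members. Transcripts that met the rule in single experiments showed this too. Of those that met it under low T 21.64% were called lower in day-30 controls, of those under low N 52.93% and of those under low P 49.87%, and of the 201 that met it for nitrogen and for phosphate but not for temperature 81.09%. The share of the 47 members was 87.23%, and the difference between these shares was not tested.

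**Figure D5:**
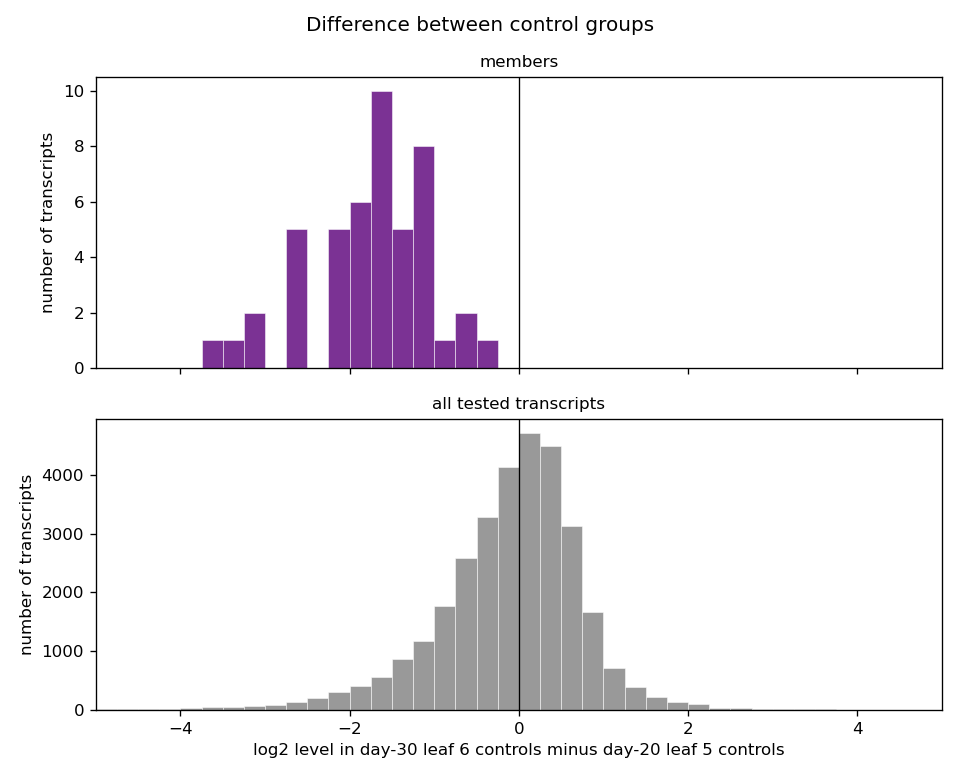
Number of transcripts (vertical axis) by log2 difference between day-30 leaf 6 controls and day-20 leaf 5 controls (horizontal axis, bins of 0.25). The upper panel holds the 47 members, all below 0, and the lower panel the 31507 tested transcripts, with a median of -0.0033.

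Named members with the largest control differences included the invertase or pectin methylesterase inhibitor OptiV1C00941, at -3.63 ± 0.64 (SE), and the ankyrin repeat protein OptiV1S30839, at -2.73 ± 0.28. The other 4 of the 6 largest were unnamed, OptiV1C14330 at -3.49, OptiV1C06311 at -3.24, OptiV1S20717 at -3.15 and OptiV1N38601 at -2.67. Only 6 of the 8 day-30 control arrays were well above background for OptiV1C00941, OptiV1C14330, OptiV1C06311 and OptiV1N38601, and 7 for OptiV1S20717. The sizes of these 5 differences therefore include readings that were not well above background. Chaperonin-60 alpha differed by -2.51 ± 0.20. RS2 averaged -2.52 ± 0.66 in day-30 controls (SD, n = 8) and -0.50 ± 1.50 in day-20 controls (SD, n = 4), a difference of -2.02 ± 0.55.

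The 6 members that were not called were OptiV1C05147, OptiV1C11461, OptiV1C13125, OptiV1S20962, OptiV1S24939 and OptiV1S31825. The lipid-transfer protein OptiV1S31825 had a difference of -0.40 ± 0.65, and its control T arrays ranged from -6.20 to -2.29. OptiV1C13125 differed by -0.85, short of a fold change of 2. Age, leaf, chamber, light, season and slide all differ between these controls and cannot be told apart.

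Control N and control P leaves had the same age, leaf number and nutrient solution, but came from experiments in different seasons and years and lay on different slides. No member was called different between them by limma, where 0.419% of all tested transcripts were, and 7 of the 47 members had an unadjusted p under 0.05, where 17.4% of all tested transcripts had. The median of the members was 0.21 (-0.86 to 1.62), with 32 of the 47 higher in control N, and the median over all tested transcripts was 0.02. The largest difference was that of OptiV1S23374, 1.62 ± 0.61 (limma adjusted p = 0.2108). GSA2 was picked because it had the smallest adjusted p of the named members. It was at -0.29 ± 0.35 in control N and -1.01 ± 0.18 in control P leaves (SD, n = 4 each), a difference of 0.71 ± 0.19 (limma adjusted p = 0.09441). Its unadjusted exact permutation p was 0.02857, the smallest that 4 against 4 arrays allow, and OptiV1C02069 and OptiV1C06989 had the same. The rule had used these control arrays, so the values are a description.

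Relatives of the members were taken from the descriptions in the study's tables, which were drawn up from these same arrays. The longest of these tables was held only in part and lists transcripts that the study called changed under a stress. The counts are therefore no independent evidence, and they are not shares of whole families on the array. The percentages that follow are over all tested transcripts, which were not selected in this way. As background, limma called 7.25% of the 31507 tested transcripts higher and 7.11% lower under low T, 2.68% higher and 3.14% lower under low N, and 8.22% higher and 3.01% lower under low P. With scaling on spike-in probes instead of the 75th percentile, which set the median of all tested transcripts at 0.38 under low T, 0.50 under low N and 0.24 under low P, 5259 were called higher and 1077 lower under low T, 1661 higher and 250 lower under low N, and 3996 higher and 630 lower under low P, where the 75th percentile gave 2284 and 2241, 845 and 988, and 2591 and 949. Normexp gave 805 higher and 828 lower under low T, 500 and 684 under low N, and 1015 and 595 under low P. Normexp counts are given for some of the lists below and not for all. The lists of relatives include the members, which the rule had already placed among the higher ones. Among 37 chitinases, family 18 glycosyl hydrolases and glucan endo-1,3-beta-glucosidases, 27 were higher and 2 lower under low P, 7 higher and 3 lower under low N, and 12 higher and 10 lower under low T. The median of this list was 1.41 under low P, 0.15 under low N and -0.20 under low T (0.25 with spike-in scaling). After normexp 9 of this list were higher and 1 lower under low P, with a median of 0.47. Under low N normexp gave 4 higher and 2 lower, and under low T 8 higher and 5 lower. Both members of it, the basic chitinase and OptiV1C11114, thus stood in a family that changed in mixed directions under low T, where spike-in scaling gave 15 higher and 7 lower.

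Of 9 lipid-transfer and glycolipid transfer proteins 4 were higher and 2 lower under low T, 4 higher under low N and 4 higher under low P, with none lower under the nutrient stresses and medians of 1.35, 1.45 and 0.84. After normexp 2 were higher and 1 lower under low T, 4 higher under low N and 1 higher under low P. OptiV1S19871 differed by 2.25 under low T and 1.17 under low P and was called in both, with 0.79 under low N. Of 7 laccases and multicopper oxidases 1 was higher under low T, the member itself, while 2 were higher and 1 lower under low N and 4 higher and 1 lower under low P. With normexp 1 was higher under low T, 1 under low N and none under low P. OptiV1C10536, called a laccase as well, was higher by 1.77 under low N and 1.02 under low P, with 0.29 under low T, whereas OptiV1S31585 fell by 2.32 under low N and by 2.63 under low P.

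The MYB and NAC lists had more lower than higher transcripts under low T. Among 40 MYB factors 4 were higher and 17 lower under low T (5 and 6 with spike-in scaling), 8 higher and 8 lower under low N (9 and 3), and 6 higher and 10 lower under low P, where spike-in scaling turned the balance to 10 higher and 8 lower. RS2 was called higher in each, and OptiV1S33291 was called under low T and low N but not under low P. Among 19 transcripts described as NAC factors 3 were higher and 10 lower under low T (3 and 6 with spike-in scaling), 5 higher and 2 lower under low N (5 and 0), and 2 higher and 2 lower under low P (8 and 2). OptiV1S23917 is counted among the higher ones in each stress, although its name does not say which kind of NAC protein it is. It may therefore be no relative of the others. Of 15 leucine-rich repeat kinases 2 were higher and 8 lower under low T (4 and 6 with spike-in scaling), 4 higher and 3 lower under low N (4 and 0), and 5 higher and 2 lower under low P (6 and 2). Among 13 cyclins, cyclin-like F-box proteins, cyclin-dependent kinases and their inhibitors 11 were higher under low P and none of them lower. Under low T 1 was higher and 4 lower, and under low N 1 was higher. With spike-in scaling 1 was higher and 1 lower under low T. Normexp gave 5 higher under low P, 1 higher under low N and none called under low T. Besides the member, the list held the Kip-related inhibitors OptiV1C04081 and OptiV1C04659. These fell by 1.82 and 1.90 under low T and rose by 1.75 and 1.71 under low P. Of 31 alpha/beta hydrolases 7 were higher and 11 lower under low T, 8 higher and 5 lower under low N, and 6 higher and 8 lower under low P; spike-in scaling turned the balance under low T, to 9 higher and 5 lower, and under low P, to 10 higher and 6 lower, and gave 8 higher and 1 lower under low N. Of 9 ankyrin repeat proteins 1 was higher and 5 lower under low T (1 and 3 with spike-in scaling), 2 higher and 2 lower under low N (2 and 1), and 1 higher and 1 lower under low P (1 and 1).

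The small families gave single relatives. The other mTERF of the tables, OptiV1C00944, was higher by 1.40 under low N and was not called under low T, at 0.54, or low P, at -0.01. The other calcium transporting ATPase, OptiV1C03603, fell by 1.23 under low N and was not called under low T, at -0.28, or low P, at -0.40; with spike-in scaling the low N call was lost. Around GSA2, a light-dependent protochlorophyllide oxidoreductase A (OptiV1C09538), which makes the chlorophyll precursor chlorophyllide, fell by 1.13 under low T, rose by 2.06 under low P and was at 0.38 under low N; with spike-in scaling its low T call was lost. Uroporphyrin III methyltransferase (OptiV1C17652), which leads to siroheme, fell by 3.15 under low N and by 3.96 under low P. Of the 15 transcripts of the shikimate pathway list 4 were higher under low T, 1 higher and 3 lower under low N (1 and 0 with spike-in scaling), and 4 higher under low P. Of 5 armadillo repeat proteins 1 was higher and 3 lower under low T (2 and 1 with spike-in scaling), 1 higher under low N, and 2 higher and 1 lower under low P.

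Of the study's 5 maize senescence markers 1 was higher and 1 lower under low T, 1 was higher under low N and 2 were higher under low P. None of 27 autophagy transcripts was called by limma in any of the 3 stresses at a fold change over 2. Of 7 chlorophyll degradation transcripts 1 was higher and 1 lower under low T, and none of them was called under low N or low P. The photosystem, C4 and Calvin cycle lists had medians between -0.62 and 0.36 in the 3 stresses. The rule leaves out the transcripts of the study's pathway lists, so none of its senescence, autophagy, chlorophyll degradation and photosynthesis lists could hold a member.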

How the data were processed

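The values were log2 signals of an Agilent array with 1 dye (Cy3). The authors scanned the arrays with Agilent Feature Extraction (version 11.7.1 per the labels) and, per their methods, scaled each to its 75th percentile in GeneSpring; the deposited series table holds these log2 values with every transcript centred on its median over the 24 arrays. Levels printed here were computed from the deposited intensity column (the processed signal) as log2 minus the 75th percentile of each array; they matched the deposited table after centring, with a largest median difference of 0.000134 on any array. The deposited flags for well above background, saturation and outliers were used as given. A level on this scale compares groups for 1 transcript and not transcripts with each other.

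The members and the lists were chosen with earlier results of these data known. The differences between stressed and control leaves had chosen the members and were not tested for them. Tests covered 31507 transcripts, those whose spot was well above background throughout 1 or more groups, with limma 3.58.1 in R 4.3.3, each stress against its own control and the 12 control arrays in 1 fit, with Benjamini-Hochberg adjustment over all tested transcripts, a fold change over 2 and an adjusted p under 0.05. Exact permutation tests (scipy 1.17.1) were two-sided. The scripts were tested on simulated data. Transcripts were named by the study's tables: per-array values were given for members in its list of common markers, values of the 3 unnamed members with the largest smallest difference, up to 2 examples near the limit, and the 6 largest control differences; other named values were chosen after they were seen. Of 25 gene models of members 17 matched a RefSeq gene (Zm-B73-REFERENCE-NAM-5.0), and coordinates are not used here.

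Alternatives were normexp background correction (offset 50, on median signals), quantile normalization, scaling on 10 spike-in probes, other filters and limits, slide or replicate number as a block, and each replicate left out. Same-numbered replicates of low T and control T deviated together (correlations of 0.189 to 0.424), as did those of low N and control N (0.175 to 0.362); these numbers come from the sample titles. Those of low P and control P did not (-0.104 to 0.0452). The number of arrays limits the precision. The labels call the replicates biological.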

Additional observations from a re-analysis of the deposited data

Results flagged for a closer look

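Among 168 groups of 4 arrays (28 members in 6 groups, those named or called unknown in the study's tables and the 3 others with the largest smallest difference), 11 held an array whose gap to its neighbour took up most of the range of the group, where chance alone gives about 1 in 20. In low P leaves replicate 3 was the high array for RS2, at -0.09 with the others at -1.43 to -1.21, for GSA2, at 0.48 with the others at 0.01 to 0.09, and for the unknown OptiV1S23699, at 1.61 with the others at -0.05 to 0.18. In low N leaves the NAC and TS-N transcript was high in replicate 3, at 2.03 with the others at 1.77 to 1.80, and the invertase or pectin methylesterase inhibitor was low in replicate 4, at -2.71 with the others at -2.26 to -2.20.

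The other 6 were control arrays. Replicate 4 was the low one in control P leaves for GSA2, at -1.28 with the others at -0.93 to -0.90, for the R2R3 MYB protein, at -4.88 with the others at -3.91 to -3.80, and for the leucine-rich receptor-like protein kinase, at -5.54 with the others at -4.68 to -4.51. It was also low for the kinase in control N leaves, at -4.73 with the others at -3.91 to -3.84, and for the unknown OptiV1S24939 in control T leaves, at -5.02 with the others at -2.28 to -2.00. The invertase or pectin methylesterase inhibitor was high in control P replicate 2, at -5.12 with the others at -5.94 to -5.87. A cause was not tested.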

How the results depend on the processing

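The number of transcripts that met the rule, 47, was 11 after normexp background correction, 114 with spike-in scaling, 191 with the 7 spike-in probes that were bright on all arrays (chosen after seeing the data), 24 when all 24 arrays had to be well above background, 12 at a limit of 1.5, 74 when arrays were allowed to overlap, and 40 to 85 with a replicate number left out, the highest without replicate 2, where 45 of the 47 were retained. The cause was not tested, except that stricter limits keep fewer transcripts by construction. Among the 28 members described, normexp also turned 3 differences under low P below 0. They were -0.27 for OptiV1C03999, -0.18 for OptiV1C11114 and -0.14 for OptiV1C13551. Over all 47 members the count below 0 was 5. The normexp median over the 47 members was 1.25 under low T, 1.14 under low N and 0.52 under low P. A difference of 1 or more was kept by 33 members under low T, 32 under low N and 16 under low P, and by 15 in all 3. Among alternative values of the differences of the 28 members described, 546 moved by less than the spread between replicates, 123 moved by more and 3 reversed.

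The 41 members lower in day-30 controls were 22 with normexp, 24 with slide as a random block and 28 to 42 with a replicate number left out. When all 24 arrays had to be well above background only 24 members were tested, and 21 of these were called. Control N against control P gave 0 to 1 members, the 1 without replicate 4. Calls over all transcripts were 1633 with normexp and 9767 without a fold change limit under low T (4525 otherwise; 3551 to 4337 with a replicate left out). Under low N they were 1184 with normexp, 3209 with the bright spike-in probes, 3516 without a fold change limit and 3365 with slide as a block (1833 otherwise; 623 to 1301 with a replicate left out, 623 without replicate 1, 659 without replicate 2 and 1129 without replicate 4). Under low P they were 1610 with normexp, 7054 with the bright spike-in probes, 12968 without a fold change limit and 2227 with all 24 arrays well above background (3540 otherwise; 3181 to 3427). With replicate number as a block the counts were 4778 under low T, 2218 under low N and 3403 under low P. With it 43 members were lower in day-30 controls and 0 differed between control N and control P. This block changed none of these counts by over 1.5 times.

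Control N spots that were not well above background limit how far the size of the low N differences can be read. Only 25 of the 47 members were well above background on all 4 control N arrays.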
